A study of Mus musculus with 8 samples.

Results

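Haematopoietic stem cells (HSCs) from old mice with high autophagic activity were compared with HSCs from young mice by bulk RNA sequencing. All animals carried the GFP-LC3 reporter (genotype Gfplc3/Gfplc3), a fusion of green fluorescent protein to the autophagosome protein LC3, and all HSCs were isolated from bone marrow at steady state. The young group held 2 libraries from mice of 8 to 12 weeks, and their HSCs were not divided by reporter signal. The old groups came from 3 mice aged over 24 months, whose HSCs were split by flow cytometry into the dimmest 33% for GFP, called AThi for high autophagy, and the brightest 33%, called ATlo for low autophagy. Cells in the middle of the GFP range were in neither old fraction. The comparison rested on the 3 AThi libraries and the 2 young libraries, 5 of the 8 libraries of the series, and on the 13611 of 19909 genes with a base mean (the mean normalized count over all libraries) of 100 or more. AThi cells differed from young cells both in age and in having been gated, and the effects of age and gate cannot be told apart in this comparison. The 3 ATlo libraries were used to show where the AThi fraction departed from the other old fraction.

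HSCs sustain blood formation over a lifetime and spend most of their time outside the cell cycle. Autophagy encloses cytoplasm and organelles in a double membrane studded with lipid-bound LC3 and delivers them to the lysosome, where LC3 on the inner membrane, and a GFP fused to it, are degraded together with the cargo, so that a low GFP-LC3 signal marks cells in which flux is high. With age the HSC pool expands, shifts towards megakaryocytes and myeloid cells and gains a characteristic set of surface and adhesion transcripts.

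Depth ranged from 33960216 to 45830216 reads in the 5 libraries compared and from 54512285 to 61341946 in ATlo, and ribosomal RNA genes took 27.1% to 36.1% of reads in the 8 libraries. The defining HSC markers were present in every library, with a summed normalized count of 116015 and 117666 in young and 113999 to 139861 in AThi. Libraries whose column tag ends in 12, one in each group, stood apart. Their summed B cell markers were 17359 in young D12, 34288 in AThi O12 and 15908 in ATlo O12, against 2041 to 5152 in the other 5 libraries, and Ighm, the immunoglobulin heavy chain constant region, was at 35.3 and 8395 in young, 35.1, 25.3 and 20937 in AThi, with 33.0, 63.5 and 7314 in ATlo libraries. Haemoglobin Hbb-bs was likewise highest in those libraries, at 279 and 2344 in young and 80.5, 197 and 735 in AThi. Young D11 differed in another way: Xist, the transcript of the inactive X chromosome, was at 97743 and 3869 in young, 87.8, 145 and 5809.5 in AThi, with 171, 32.5 and 2747 in ATlo libraries, and the Y-linked Kdm5d was at 0 and 1468 in young. The 2 young libraries may thus differ in sex, which the labels do not give. Apart from young D11, Xist was highest in the libraries tagged 12. The reason was not tested. Nothing in the sources used here says which library was sorted on which of the 2 sort days, so no value within a day could be given. Counts below are therefore also given without young D11, without young D12 and without all libraries tagged 12. The series' design names 2 young and 3 old mice, and the labels call the AThi and ATlo samples paired biological replicates, so the libraries of a group were taken to come from separate animals.

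**Figure D1:**
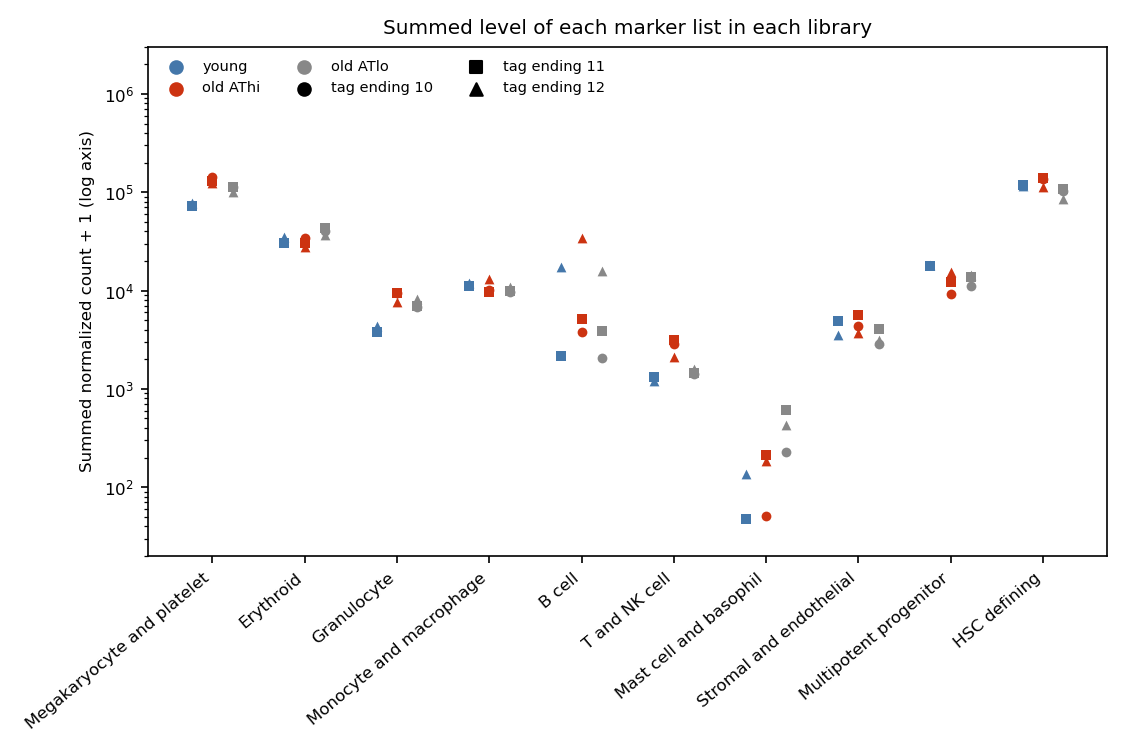
Summed normalized count of each marker list (log axis, plus 1) in each library, coloured by group and shaped by column tag. B cell markers stood at 15908 or more in the 3 libraries tagged 12 and at 5152 or less in the others, and megakaryocyte markers were higher in every AThi library than in both young ones.

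Of the 13611 genes, 199 were higher in AThi than in young HSCs (1.46% of genes tested) and 80 were lower (0.588%) at an adjusted p under 0.05 in limma on log2(normalized count + 1). Rises were larger than falls: the median log2 difference of the 199 was 1.93 and that of the 80 was -1.20, and 94 rises but 5 falls passed 2 on the log2 scale. Over all 13611 genes the median difference was -0.02 and 48.0% of genes were above 0. An unadjusted p under 0.05 was reached by 2017 of the 13611, higher and lower together, and the unadjusted counts of lists below are to be read beside that. In 60 of the 199 the young mean lay under 100, while the AThi mean of each of the 199 reached 100. In 3 of the 80 falls the AThi mean lay under 100. The base mean runs over 8 libraries, of which 2 are young. A gene high only in old HSCs therefore passes the threshold more easily than one high only in young HSCs. The part of this filter in the larger rises was not tested. In bulk samples fewer cells of a type and less RNA per cell cannot be told apart, which holds for each difference below. All 279 showed no overlap between the 3 AThi and the 2 young values. Genes picked for a low p are mostly separated in this way, so it adds no support to the calls. The share of all genes without overlap was not counted. With 2 young libraries the young level was the less certain side: these differed from each other by a median of 0.28 on the log2 scale, by over 2-fold in 1098 genes, and by over 2-fold in 49 of the 199 rises and 1 of the 80 falls. Without young D11 the counts were 103 higher and 21 lower, without young D12 they were 137 and 25, and without the libraries tagged 12 they were 72 and 2. A call that held when each of the 5 libraries was left out in turn was made for 75 of the 199 and 9 of the 80. Among the genes picked out by the naming rule, those were the rises of Kcnb2, Limch1, Osmr, Zg16, Cdh4, Tmem132b, Tmem215, Muc1, Mt2, Sbspon, Dnm3, Gpx8, Gpr183, Clca3a1, Selp, Bmp4, Mt1, Nupr1, Bmpr1a, Abca4, Cavin2, Klrb1c, Neo1, Jam2, Vwf, Alcam, Itgb3, Cysltr2, Aldh1a1, Vldlr, Gda, Pbx3, Lratd2, Myof and Itga6 and the falls of Top2a, Tuba1b, Rrm1, Dtl, Mcm5, Pclaf, H1f5 and Nrk. The calls of the other named genes were lost in at least 1 of these 5 fits. The authors' deposited DESeq2 test called 501 higher and 344 lower over these genes.

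**Figure D2:**
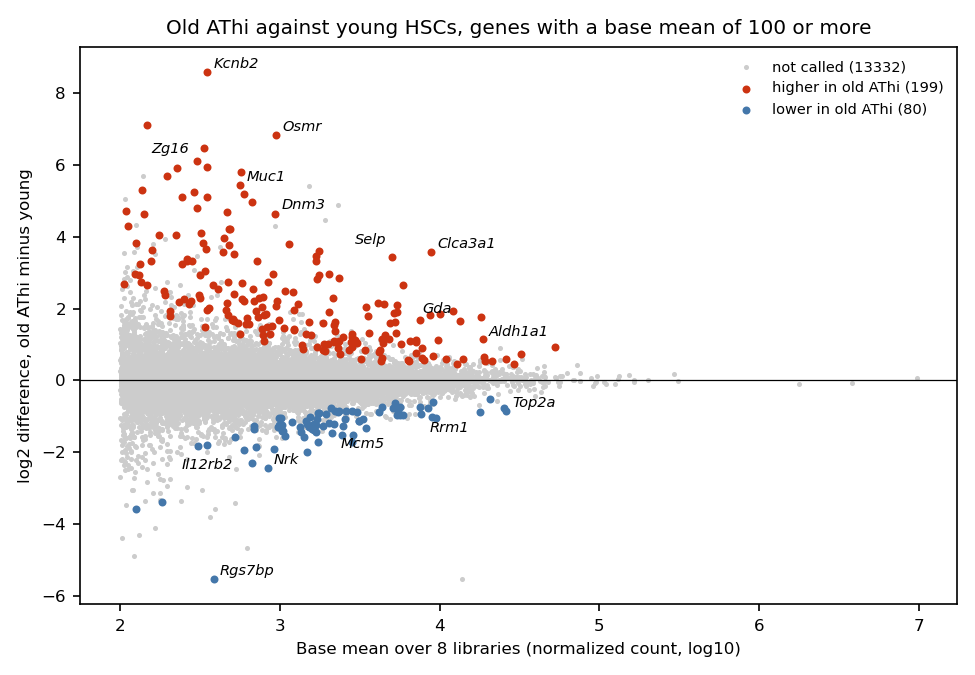
Difference in log2(normalized count + 1) between AThi and young HSCs (vertical axis) against the base mean over 8 libraries (log10, horizontal axis), one point per gene. The 199 red points reach 8.58 upwards and the 80 blue points reach -5.53 downwards, and named points are described in the text.

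The lowest adjusted p belonged to Clca3a1, a member of the calcium-activated chloride channel regulator family (chr3:144729677-144760977 in RefSeq, GRCm38.p6). Its normalized count was 1047 and 982 in young, 12105, 11914 and 12119 in AThi, with 8604, 12166 and 11432 in ATlo libraries. Both old fractions thus lay far above young, and AThi exceeded young by 3.57 (SE 0.15, adjusted p = 1.23e-05) on the log2 scale. The paralogue Clca3a2 and the predicted gene Gm34866, which lies inside the span of Clca3a1, were also called, and reads from overlapping or similar genes cannot be told apart here. Selp, which encodes P-selectin, an adhesion receptor of platelets and endothelium (chr1:164115264-164150026), followed with 827 and 602 in young and 8772, 7536 and 6832 in AThi. ATlo libraries held 5461, 5397 and 5069, between the other groups, and the rise in AThi over young was 3.44 (SE 0.16, adjusted p = 2.61e-05). Aldh1a1, a retinaldehyde dehydrogenase (chr19:20492583-20643463), stood at 5489 and 6795 in young and 20630.0, 21609.5 and 20187 in AThi. The AThi libraries lay close together, the difference was 1.77 (SE 0.12, adjusted p = 2.55e-04), and ATlo was no lower at 23383, 25857 and 20775.

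Several of the steepest rises were in genes with few or no reads in young HSCs. Kcnb2, a voltage-gated potassium channel subunit (chr1:15286925-15723751), had 2.08 and 0 normalized counts in the young libraries and 944, 663 and 481 in AThi. Only 2 reads lay behind the young values against 1707 in AThi, a log2 ratio of 9.32 with a 95% counting interval of 7.47 to 12.37, which covers counting error only. ATlo libraries held 286, 123 and 312. Limch1, which acts on the actin and myosin cytoskeleton, was at 4.16 and 0 in young and 329, 172 and 533 in AThi, from 4 and 890 reads (log2 ratio 7.38, interval 6.02 to 9.26). Zg16, a lectin of secretory granules, was at 4.16 and 5.28 in young and 353, 423 and 397 in AThi, from 9 and 1004 reads (log2 ratio 6.39, interval 5.46 to 7.52). For all 3 genes every old library exceeded both young ones. They were picked as called rises with few young reads, so neither this nor the intervals add support to the calls. In ATlo, Zg16 was at 426, 459.7 and 349.8. Limch1 was listed at 55.0, 31.8 and 44.3 there, a difference that did not pass the test between old fractions (adjusted p = 0.0863). Every young and ATlo value of Limch1 lay under 100, so it passed the base mean threshold through AThi.

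Other large rises included membrane and secreted proteins. Osmr, the oncostatin M receptor subunit that signals with gp130, had 6.23 and 31.7 in young against 1805, 1790.3 and 1696 in AThi, with 1202, 676 and 355 in ATlo libraries. The rise of 6.84 (SE 0.63, adjusted p = 9.96e-04) held without each library. Muc1, a membrane mucin, stood at 32.2 and 9.50 in young and 823, 932 and 677 in AThi, a rise of 5.43 (SE 0.46, adjusted p = 6.17e-04). Cdh4, or R-cadherin, was at 12.5 and 4.22 in young and 454, 1066 and 278 in AThi, and Sbspon, a secreted protein with a thrombospondin domain, at 17.7 and 52.8 in young and 1342, 847 and 1338 in AThi. Tmem215 (5.81), Tmem132b (5.90), Matn4 (6.46) and Gabra4 (5.68), with Mt2 described below, completed the 12 largest log2 rises among called genes with an ordinary symbol. Matn4 and Gabra4 had 0 reads in young D11, and the young libraries disagreed in them, at 0 and 32.7 for Matn4 and 0 and 16.9 for Gabra4. Both lost their call without AThi O10, without AThi O11 and without AThi O12.

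**Figure D3:**
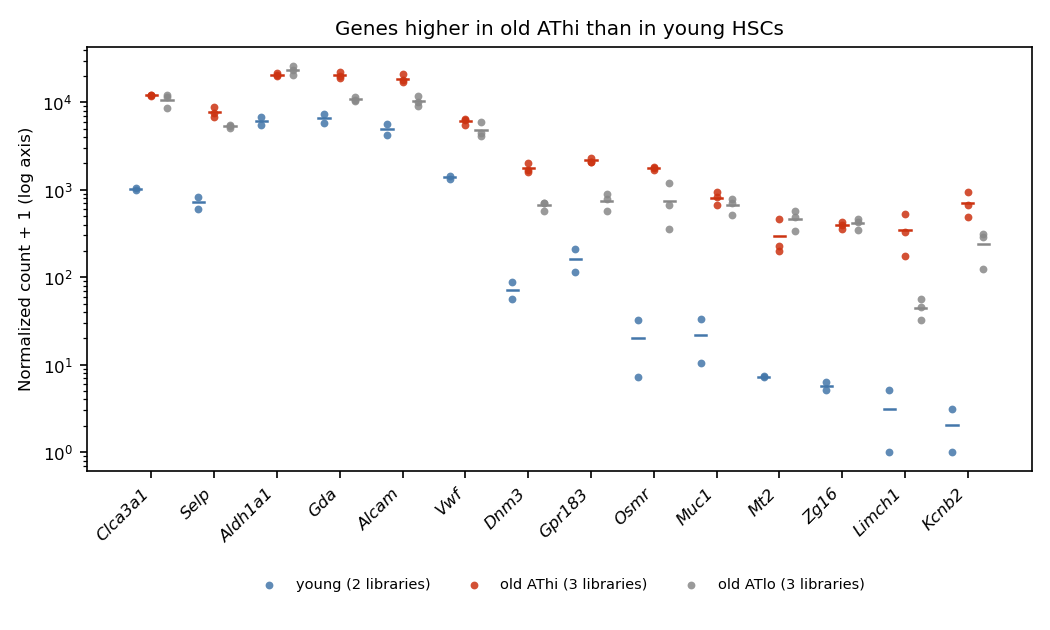
Normalized count plus 1 (log axis) of 14 genes in each of the 8 libraries, with a bar at each group's mean. Every AThi point lies above both young points, and the ATlo points of Dnm3, Gpr183, Gda and Alcam lie between those of young and AThi.

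Most genes of a list of HSC ageing genes were called. Of 49 measured members, 41 rose in AThi, none fell, and all 49 were above 0, with a median log2 difference of 2.04 against -0.02 over all genes. The list was drawn up partly from earlier results on these libraries, so neither its direction nor its number of calls is independent evidence. The count was 34 without young D11, 37 without young D12 and 30 without the libraries tagged 12. Vwf, the von Willebrand factor, was at 1334 and 1451 in young and 6329, 6479.8 and 5542 in AThi. Nupr1, a small stress-induced chromatin protein, was at 233 and 534 in young and 2576, 2447 and 3201 in AThi, with a rise of 2.94 (SE 0.32, adjusted p = 0.0024). Clu, which encodes the extracellular chaperone clusterin, rose by 2.97, but its young libraries were 152 and 661, and the call was lost without AThi O10 and without AThi O11. Itga2b (CD41, the fibrinogen receptor alpha chain) was not called: it was listed at 460.2 and 883 in young, 1417, 1594 and 1454 in AThi, with 2125, 2735 and 2249.8 in ATlo (adjusted p = 0.058 against young).

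Megakaryocyte and platelet markers overlapped with that list. Of 16 measured markers 6 rose and none fell, with a median of 0.97, beside 1.46% and 0.588% of all genes. Differences were above 0 in 13 and below 0 in 3, with F2rl2 lowest at -1.04. Ppbp, Gp1bb and Treml1 lay under the base mean threshold, and Gp6 and Tubb1 were not listed. Cavin2, which shapes caveolae, was at 813 and 1846 in young and 9394, 6060.3 and 8219 in AThi, Itgb3, the beta chain of the fibrinogen receptor, at 2921 and 4541 in young and 13572, 11361 and 13615 in AThi, and Mmrn1, or multimerin, at 22865 and 23872 in young and 43229, 36908 and 36078 in AThi. The summed markers were 72047 and 77457 in young and 125114 to 141837 in AThi, with 100098 to 113693 in ATlo. Ppbp was at 0 in 1 AThi library. The part of megakaryocyte-primed cells in any other difference was not tested.

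Among receptors that hold HSCs in their niche or guide their migration, 7 of 34 rose and 1 fell, with a median of 0.03. Over all genes 1.46% were called higher and 0.588% lower. Of these rises, Itgb3, Selp, Cdh4, Jam2 and Gpr183 are also in the HSC ageing list, so they are not separate results. Gpr183, an oxysterol-sensing receptor of cell positioning, went from 114 and 209 in young to 2105, 2083 and 2296 in AThi. The ATlo fraction held 896, 789 and 565, so AThi exceeded both young by 3.80 (SE 0.30, adjusted p = 4.94e-04) and ATlo by 1.55 (adjusted p = 0.0226). Jam2, a junctional adhesion molecule, was at 1329 and 1746 in young, 8769, 5960.1 and 6047 in AThi and, in ATlo, 3298, 2889.8 and 3021. Its order was the same, with AThi highest. Itga6, the alpha-6 integrin of laminin receptors, rose by 1.15 and Cdh4 by 5.94. The fall was that of Plxdc2, a membrane protein with a plexin domain, described below.

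Surface proteins used to sort HSCs gave 5 rises among 28, with a median of 0.29, beside 1.46% of all genes. Of these, Slamf1, Vwf, Alcam and Neo1 are also in the HSC ageing list. Slamf1 (CD150), the SLAM receptor that defines HSCs, was at 1925 and 1679 in young and 3926, 3631 and 3683 in AThi libraries. That rise of 1.06 (SE 0.14, adjusted p = 0.00541) was moderate beside that of Alcam (CD166), at 5675 and 4199 in young and 21240.4, 16911 and 17862 in AThi. Neo1, or neogenin, a receptor of guidance cues, was at 831 and 568 in young and 4017, 3494 and 2663 in AThi and rose by 2.28. Kit, the stem cell factor receptor, did not pass the test, with 25495 and 28785 in young and 37797, 39466 and 25620.4 in AThi (adjusted p = 0.634). Procr (EPCR) was listed at 2321 and 2844 in young and 4646, 4069.5 and 4834 in AThi (adjusted p = 0.0756), and all AThi libraries lay above both young ones. Cd34 and Flt3, which mark progenitors as HSCs leave the stem cell state, were lower in every AThi library without passing the test. Cd34 was at 5818 and 4341 in young and 2616, 3109 and 2266 in AThi (adjusted p = 0.0661), and Flt3 at 1150.0 and 862 in young and 319, 472 and 327 in AThi (adjusted p = 0.0597). All 7 measured markers of multipotent progenitors had differences below 0, with a median of -1.44, and none was called (0 higher and 3 lower at an unadjusted p under 0.05). Summed, they were 17869 and 18085 in young and 9241 to 15259 in AThi, with Cd48 at 0 in AThi O10.

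In 4 lists of cytokine and growth factor signalling 7 genes rose and 1 fell, beside 1.46% and 0.588% of all genes. In the cytokine receptor list Osmr rose and Il12rb2, a subunit of the interleukin 12 receptor, fell, with 31 of 33 not called and a median of 0.07, and the fall of Il12rb2 was lost without young D11 and without young D12. Downstream of gp130, Stat3 was at 6505 and 6201 in young and 9848, 9583 and 8787 in AThi, a rise of 0.56 (SE 0.11, adjusted p = 0.0363). Its feedback inhibitor Socs3 was at 93.5 and 194 in young and 399.6, 725 and 509 in AThi, a rise of 1.96 (SE 0.39, adjusted p = 0.0448). Those were the 2 calls among 30 JAK-STAT genes, whose median was 0.12, and neither was kept in more than 1 of the 5 fits that left out a young or AThi library. Among 26 genes of TGF-beta and BMP signalling, 3 rose and none fell, with a median of 0.03. Bmp4, a secreted ligand, was at 49.9 and 116 in young and 621, 732 and 573 in AThi. The receptor Bmpr1a was at 270.1 and 733 in young and 3559.8, 3115 and 3029 in AThi, and the co-receptor Tgfbr3 at 4184 and 3732 in young and 8411, 8990.2 and 7477 in AThi. In ATlo, Bmp4 was at 225, 191 and 216 and Bmpr1a at 3147, 2436 and 2402, and AThi exceeded ATlo for Bmp4 (adjusted p = 0.0498), while Bmpr1a did not pass that test (adjusted p = 0.713). Sfrp1, a secreted Wnt antagonist, was the 1 call among 28 Wnt and Notch genes and rose by 1.38, a call lost without young D11 and without young D12.

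The metallothioneins, small proteins that bind zinc and copper and are induced through metal response elements, rose together. Mt2 was at 6.23 and 6.34 in young and 467, 198 and 229 in AThi, and Mt1 at 85.2 and 173 in young and 1189, 989.9 and 731 in AThi. Neither gene's groups overlapped, and the log2 differences were 5.25 (SE 0.46, adjusted p = 8.05e-04) and 2.96 (SE 0.34, adjusted p = 0.00263). ATlo libraries also lay above young, at 569, 493 and 339 for Mt2 and 1592, 1251 and 1193 for Mt1. No other of the 22 measured genes of zinc and copper handling was called, and the list's median was 0.17. Mt1 and Mt2 are neighbours on chromosome 8. Their promoter windows (RefSeq, GRCm38.p6, 250 bases before to 50 after a listed start) are shown because the genes moved together. Capitals mark each match to TGCNCNC, the core of the metal response element, on either strand: 3 matches in Mt1 and 6 in Mt2.
Mt1, chr8:94178839-94179138 (+): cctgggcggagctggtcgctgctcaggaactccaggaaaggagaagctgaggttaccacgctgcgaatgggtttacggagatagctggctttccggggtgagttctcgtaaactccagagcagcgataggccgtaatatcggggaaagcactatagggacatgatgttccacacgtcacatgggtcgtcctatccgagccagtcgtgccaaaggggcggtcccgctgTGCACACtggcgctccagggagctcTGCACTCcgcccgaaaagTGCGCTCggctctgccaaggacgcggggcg
Mt2, chr8:94172368-94172667 (+): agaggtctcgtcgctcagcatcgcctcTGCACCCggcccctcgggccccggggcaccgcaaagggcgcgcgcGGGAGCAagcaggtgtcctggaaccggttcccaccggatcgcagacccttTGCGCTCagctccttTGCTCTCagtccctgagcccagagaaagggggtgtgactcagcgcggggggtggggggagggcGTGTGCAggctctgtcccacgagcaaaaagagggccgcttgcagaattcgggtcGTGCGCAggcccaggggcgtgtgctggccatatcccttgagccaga
The core is short, and 51.0% of 32851 promoters of this length hold at least 1 match, 7.10% hold 3 or more and 0.225% hold 6 or more. A match is a description of the letters and not evidence of binding.

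Retinoid and metabolic genes contributed a few large changes. Rarb, a retinoic acid receptor, was at 172 and 245 in young, 1212, 978 and 822 in AThi, with 328, 406 and 479 in ATlo, and with Aldh1a1 it made 2 calls among 14 retinoid genes (median 0.82), of which that of Rarb was lost without young D11. Hexokinase Hk2, the first enzyme of glycolysis, was at 1438 and 1504 in young and 3507, 2686 and 3049 in AThi. Lactate dehydrogenase Ldha was at 14456 and 15669 in young and 22504, 21913 and 21092 in AThi, a small rise of 0.54 (SE 0.09, adjusted p = 0.0217). With the enolase Eno2 (2.68) these were the 3 calls among 34 genes of glucose uptake and glycolysis, whose median was 0.09. None of the 3 was called without young D11 or without young D12, and at most 2 were when an AThi library was left out. The transporter Slc2a1 was not called (1897 and 2589 in young and 2403, 2952 and 1601 in AThi). Gpx8, a peroxidase of the endoplasmic reticulum, rose from 12.5 and 16.9 to 331, 214 and 239 and was the 1 call among 34 antioxidant genes. Among 27 ABC transporters 3 rose, with a median of 0.06. Abca4, a retinoid lipid transporter, was at 277 and 358 in young and 2613, 2916 and 1503 in AThi, and Abcb1a, the drug efflux pump P-glycoprotein, at 463 and 409.7 in young and 1278, 994 and 1297 in AThi. The difference of Abca2 was smaller, at 0.55, and 1 to 2 of the 3 calls were made when 1 young or AThi library was left out, 1 without young D11 and 1 without young D12. Of 86 subunits of oxidative phosphorylation none was called and 21 were above 0, with a median of -0.14 (limma; 0 higher and 6 lower at an unadjusted p under 0.05, 0 calls with edgeR). None of 84 cytosolic ribosomal protein genes was called, with a median of 0.02 (3 higher and 0 lower at an unadjusted p under 0.05, 0 calls with edgeR). Among 27 amino acid transporters and ATF4 targets, Vldlr, the very low density lipoprotein receptor, rose from 3463 and 2773 in young to 10138, 11604 and 8496 in AThi, and Nupr1 was the other call, while the list's median was -0.25.

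Genes of the autophagy pathway itself gave no calls in limma, which in lists of this size is near the share over all genes (1.46% higher and 0.588% lower). None of 43 measured genes of LC3 conjugation and autophagosome formation was called (median 0.06), none of 21 receptors of selective autophagy and mitophagy (median 0.22) and none of 52 lysosomal genes (median 0.18). At an unadjusted p under 0.05 the counts were 5 higher and 0 lower in the first list and 2 higher and 1 lower in the second. In the third they were 10 higher and 2 lower. Of all 13611 genes 2017 passed that threshold, higher and lower together. With edgeR's quasi-likelihood test these counts were also 0, and the authors' deposited DESeq2 test called 1 higher in the first list, 0 in the second, and 6 higher and 1 lower in the third. Map1lc3b, which encodes the main LC3 protein of most cells, was at 5749 and 5584 in young, 7254, 7199.9 and 6798 in AThi, with 6773, 6354 and 5545 in ATlo libraries. Every AThi value lay above both young values, but the difference of 0.32 (SE 0.11, adjusted p = 0.263) did not pass. Sqstm1, the p62 cargo receptor, was at 1247 and 1283 in young and 1557, 1334 and 1333 in AThi (adjusted p = 0.84). Of the LC3 relatives, Gabarap differed by 0.11, Gabarapl1 by 0.46 and Gabarapl2 by -0.10, none of them called, and Map1lc3a fell below the base mean of 100. Nor were FoxO genes called (0 of 28, median 0.23, with 6 higher and 3 lower at an unadjusted p under 0.05): Foxo3, a transcription factor that drives autophagy genes in HSCs, was at 13712 and 11714 in young and 9637, 9998 and 9876 in AThi (adjusted p = 0.315), and its target Txnip was at 24109 and 32506 in young and 37639, 43149.7 and 29268 in AThi.

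Transcripts of 21 DNA replication genes fell. Of 58 measured genes of origin licensing, the fork and S phase, 21 were lower in AThi than in young HSCs and none was higher. A difference below 0 was seen in 57, with a median of -0.98. Over all genes 0.588% were called lower, 48.0% were above 0 and the median was -0.02. Like the other lists, this one was chosen with earlier results of these data known, so its number of calls is not independent evidence. The 21 fell to 8 without young D11, to 8 without young D12 and to 0 without the libraries tagged 12, where 1 young library remained, and edgeR also called 21. Rrm1, the large subunit of ribonucleotide reductase (chr7:102441695-102469771), which makes deoxynucleotides, was at 8339 and 8488 in young and 4148, 4600.3 and 4562 in AThi. ATlo libraries stood at 9991, 10879.5 and 10490.4, above young, and the AThi library values differed from young by -0.92 (SE 0.10, adjusted p = 0.00199) on the log2 scale and from ATlo by -1.24 (adjusted p = 0.00109). Its partner Rrm2 was at 2188 and 1968 in young and 457, 828 and 665 in AThi. Pclaf, which binds the PCNA clamp, was at 1367 and 1515 in young, 441, 535 and 481 in AThi, with 2401, 2217 and 2342 in ATlo. AThi was lowest again, by -2.26 against ATlo and -1.57 against young. Ung, the uracil glycosylase that repairs misincorporated uracil, was at 1273 and 930.3 in young, 228, 289.6 and 356 in AThi and, in ATlo, 1546, 1439 and 1328. E2f1, the transcription factor that drives S phase genes, was at 808 and 899 in young, 205, 218 and 292 in AThi and, in ATlo, 898, 1104 and 1201, a difference of -1.85 (SE 0.25, adjusted p = 0.00587) from young.

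The MCM2-7 helicase, loaded at origins before S phase, illustrates the group. Of its 6 subunit genes Mcm3, Mcm4, Mcm5 and Mcm6 passed the test. All 6 were lower in each AThi library than in both young libraries. The share of all genes separated in this way was not counted, so this describes the 6 genes and adds no support to the calls. Mcm5 was at 2351 and 2561 in young, 771, 872 and 1039.9 in AThi, with 2916, 3214 and 3209.9 in ATlo, with a difference of -1.47 (SE 0.17, adjusted p = 0.00263) against young. Mcm6 was at 11624 and 11101 in young, 4535, 5549 and 6706 in AThi, with 10481, 13093 and 12703 in ATlo, a difference of -1.04 (SE 0.16, adjusted p = 0.0127) from young. Mcm3 differed by -0.96 and Mcm4 by -0.96, while Mcm2 (-0.86, adjusted p = 0.0883) and Mcm7 (-1.05, adjusted p = 0.0979) did not pass. The promoter windows of Mcm5 and Mcm6 are shown because these genes moved together and because E2F sites are known in MCM promoters. Capitals mark matches to TTTNNCGC on either strand, some of which overlap: 2 in Mcm5 and 3 in Mcm6.
Mcm5, chr8:75109259-75109558 (+): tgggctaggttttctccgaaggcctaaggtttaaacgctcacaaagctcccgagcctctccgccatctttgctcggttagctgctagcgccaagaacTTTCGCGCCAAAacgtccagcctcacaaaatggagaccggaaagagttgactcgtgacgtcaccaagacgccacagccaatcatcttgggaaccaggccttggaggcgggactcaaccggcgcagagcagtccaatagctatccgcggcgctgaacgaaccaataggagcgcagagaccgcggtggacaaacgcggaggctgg
Mcm6, chr1:128359656-128359955 (-): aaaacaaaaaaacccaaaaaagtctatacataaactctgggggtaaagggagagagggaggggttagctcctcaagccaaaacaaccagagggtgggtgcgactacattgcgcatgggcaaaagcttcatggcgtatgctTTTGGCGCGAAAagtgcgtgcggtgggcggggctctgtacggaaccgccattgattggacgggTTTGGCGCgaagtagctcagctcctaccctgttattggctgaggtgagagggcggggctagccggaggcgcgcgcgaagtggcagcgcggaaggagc
Windows of 5 of the 6 genes were found, and 4 held a match: Mcm3, Mcm5, Mcm6 and, in 1 of 2 windows, Mcm7. Of all 32851 promoters 5.17% hold a match, 0.326% hold 2 or more and 0.0365% hold 3 or more. Mcm2 held none, which says only that these letters were not in its window.

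Checkpoint and repair genes that act at the fork followed the same direction. Their calls stand beside 0.588% of all genes called lower and 1.46% called higher. Of 36 genes of homologous recombination, the Fanconi pathway and checkpoints 4 fell and none rose, with a median of -0.59 and 2 to 4 falls when 1 library was left out. Chek1, the kinase that restrains the cell cycle when forks stall, was at 2089 and 2052 in young, 471, 414 and 726 in AThi, with 1861, 1828 and 2437 in ATlo, a difference of -1.99 (SE 0.25, adjusted p = 0.00422) between AThi and young. The helicase Brip1 differed by -1.37, Brca1 by -1.24 and Topbp1 by -0.73. Other falls of low adjusted p were those of H1f5, a linker histone (3927 and 4886 in young and 1213, 1409 and 1385 in AThi), Dtl, an adaptor of ubiquitin-mediated licensing control (-1.33), and Ncapg2, a condensin subunit (-1.28). Cyclin E2 (Ccne2), the regulator of entry into S phase, was at 1535 and 1244 in young and 547, 649.6 and 566 in AThi.

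Of 51 measured mitotic genes 3 fell against young (median -0.73, 50 below 0), while 41 were lower in AThi than in ATlo. Over all genes 0.588% were called lower in AThi than in young and 2.06% lower than in ATlo, and 48.0% were above 0 against young. Leaving out 1 young or AThi library gave 1 to 10 falls against young, with 1 without young D11, 1 without young D12 and none without the libraries tagged 12. In the authors' deposited test 27 were lower than young, edgeR called 2, and 38 were lower at an unadjusted p under 0.05 in limma. Top2a, the topoisomerase that untangles chromosomes, was at 24049 and 30033 in young, 14373, 14353 and 15707 in AThi, with 34376, 40016 and 35699.7 in ATlo. AThi differed from young by -0.86 (SE 0.11, adjusted p = 0.00421). Mki67, which encodes the proliferation antigen Ki-67, did not pass against young, with 16825 and 23152 in young and 14139.8, 14501 and 20394 in AThi, but stood at 40269.6, 42789 and 47738 in ATlo and differed between the old fractions by -1.43 (adjusted p = 0.00496). Ube2c and Ect2 were called against young with adjusted p of 0.0499 and 0.0498 in limma, and both calls ended with the mouse tag as a block (0.0502 for each). Ect2 was called in none of the 5 fits that left out a young or AThi library and Ube2c in 1. Tuba1b, a tubulin, was at 19285 and 21854 in young and 10504, 11662 and 11496 in AThi, and Tubb5 at 26704 and 29764 in young and 15040.0, 18519.9 and 16438 in AThi. Lmnb1, the lamin B1 gene, differed by -0.87. In G1, Cdkn1a, the p21 inhibitor of cyclin-dependent kinases, was higher, at 67.5 and 63.4 in young and 319, 375 and 341 in AThi, and also 607, 379 and 323 in ATlo, and its call was lost without young D11 and without young D12. The p57 gene Cdkn1c (979 and 1098 in young and 1136, 1575 and 1320.3 in AThi), Cdk6 (adjusted p = 0.495) and Ccnd1 (adjusted p = 0.287) did not pass.

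**Figure D4:**
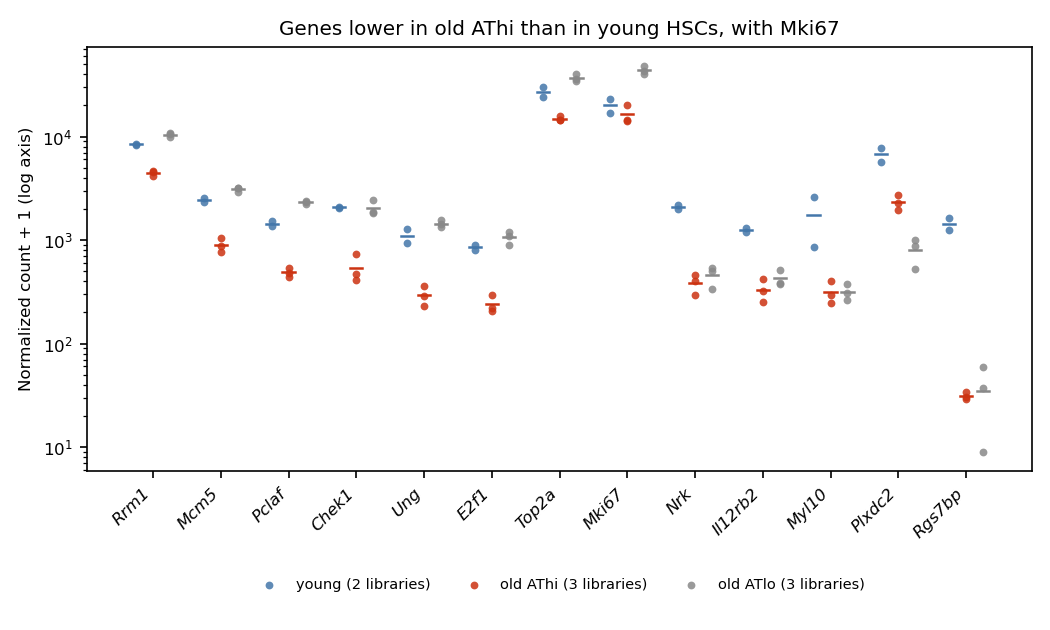
Normalized count plus 1 (log axis) of 12 genes lower in AThi than in young HSCs, and of Mki67, in each of the 8 libraries with a bar at each group's mean. From Rrm1 to Top2a the AThi points are the lowest of the 3 groups, whereas from Nrk to Rgs7bp both old groups lie below young.

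Some of the genes that fell in AThi were also low in ATlo. Of the 80 falls, the ATlo mean lay below the young mean in 31 and above it in 49. Rgs7bp, an anchor of the RGS7 regulator of G protein signals (chr13:104945904-105054930), was at 1621 and 1256 in young, 27.8, 33.0 and 29.3 in AThi, with 58.1, 7.94 and 35.8 in ATlo. All 6 old libraries lay far below young, and the AThi minus young difference of -5.53 (SE 0.73, adjusted p = 0.0052) was the lowest of the 80. It lost its call when either young library was left out. The kinase gene Nrk was at 1974 and 2176 in young, 291, 402 and 462 in AThi, with 539.8, 507 and 337 in ATlo. Il12rb2 was at 1310.0 and 1192 in young, 322, 253 and 418 in AThi and, in ATlo, 517, 378 and 382, and Myl10, a myosin light chain, at 2631 and 857 in young, 294, 396 and 246 in AThi and, in ATlo, 261, 307 and 371, with young libraries that differed by over 2-fold. In each of these the old fractions overlapped. Skint3 (-3.57), Phldb2 (-1.79) and Ebi3, a subunit of interleukins 27 and 35 (-1.84), also fell in AThi. The predicted gene Gm36401, named after its value was seen, fell by 3.37, with 278 and 352 in young, 32.2, 27.5 and 28.2 in AThi, against 109, 306 and 334 for ATlo libraries. Plxdc2 was at 5708 and 7709 in young, 2705, 1949 and 2294 in AThi, with 1000.2, 529.5 and 872 in ATlo, and AThi exceeded ATlo by 1.57 (adjusted p = 0.0155). Its call against young was lost in each of the 5 fits that left out a young or AThi library. Ebi3 was likewise lowest in ATlo, at 193, 231 and 209 in AThi and 62.9, 92.1 and 127 in ATlo (adjusted p = 0.108 between fractions).

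The test between the old fractions, which asks whether their differences from the shared young libraries differ, called 93 genes higher in AThi (0.683%) and 280 lower (2.06%), and 654 in all with the mouse as a block. It uses the same AThi libraries as the comparison with young, so the values of both comparisons are given side by side and their overlap is not read as a result. Among genes called in both, Dnm3, a dynamin of endocytosis, was at 87.3 and 54.9 in young, 2020.0, 1677 and 1601 in AThi, with 714, 705 and 575 in ATlo. Gda, or guanine deaminase, was at 5825 and 7322 in young, 19945, 19035 and 22359 in AThi and, in ATlo, 10556, 10477 and 11587, and its groups were ordered with ATlo in between. Xdh, the xanthine dehydrogenase that acts after Gda in purine breakdown, was at 105 and 101 in young, 357, 411 and 421 in AThi, with 77.0, 97.6 and 63.0 in ATlo, with AThi alone raised and a difference of 2.33 (adjusted p = 0.00804) between fractions, though its call against young was lost in each of the 5 fits that left out a young or AThi library. Myof, a membrane repair protein, and Lratd2 likewise stood near young levels in ATlo: Myof was at 3342 and 3013 in young, 7260.2, 7442 and 6623 in AThi and, in ATlo, 3485, 4109 and 3076, and Lratd2 at 1709.9 and 1561 in young, 3738, 3798 and 3747 in AThi and, in ATlo, 1671, 2063 and 1698. Exoc6b, an exocyst subunit, had the same order, with 1.02 against young and 1.01 against ATlo. At the other end were genes called against young whose old fractions lay close together, such as Nckap1, an actin regulator, with 4093, 3404 and 3961 in AThi, 3863, 4201 and 3412 in ATlo and 2145 and 2088 in young. Havcr2, the TIM-3 receptor, had 713, 984 and 570.2 in AThi, 887, 889 and 502 in ATlo and 185 and 266 in young. Casp12, an inflammatory caspase, had 2788, 2765 and 2378 in AThi, 2763, 2382 and 2586 in ATlo and 1388 and 1432 in young. The differences between their fractions were -0.0017 (SE 0.13), 0.0048 (SE 0.31) and 0.036 (SE 0.13), which do not show that the fractions were alike beyond these errors. Cysltr2, a leukotriene receptor among the rises of lowest adjusted p, was at 1467 and 1275 in young, 4696, 4784 and 4615 in AThi, with 4195, 3927 and 3644 in ATlo.

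**Figure D5:**
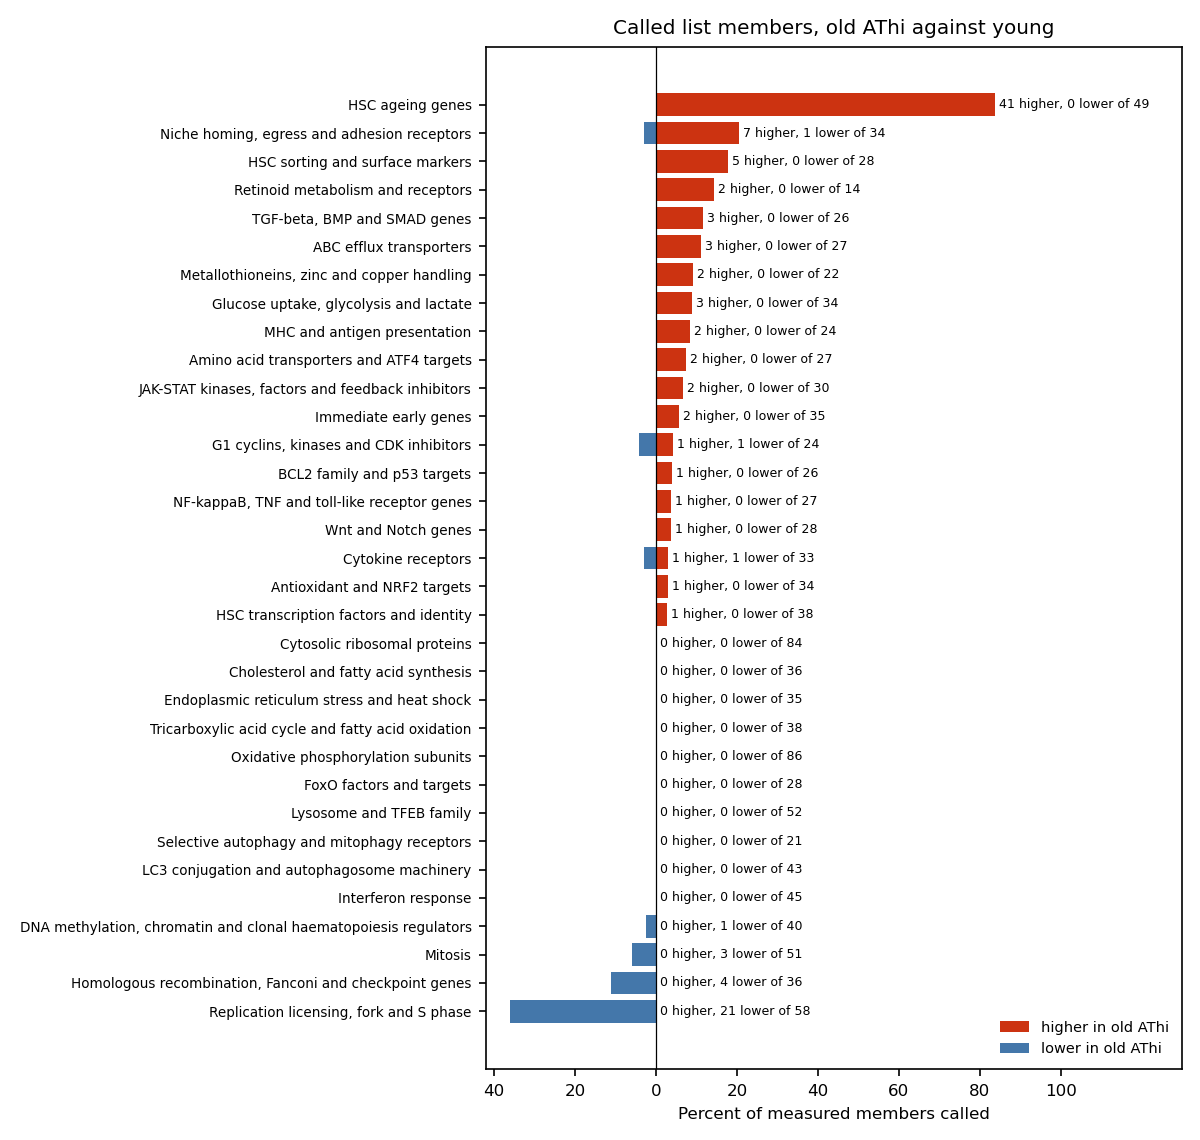
Percent of the measured members of each gene list that were called higher (right) or lower (left) in AThi than in young HSCs, with the counts printed. The HSC ageing list has 41 of 49 higher and the replication list 21 of 58 lower, against 1.46% and 0.588% of all genes. The ageing list was drawn up partly from earlier results on these libraries, and all lists were chosen with such results known.

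Immune and stress lists are given beside the 1.46% of all genes that were called higher. None of 45 interferon response genes was called (median 0.16; 5 higher and 0 lower at an unadjusted p under 0.05, 0 with edgeR, 1 higher in the authors' deposited test), and Tnip3, an inhibitor of NF-kappaB (0.80, adjusted p = 0.0499), was the 1 call among 27 NF-kappaB genes, made neither with edgeR nor in the 5 fits that left out a young or AThi library. Of 24 genes of antigen presentation, H2-DMb1 (466 and 455 in young and 1063, 1396 and 934 in AThi) and the class I gene H2-D1 (19924 and 20531 in young and 30750.3, 34305 and 26574 in AThi) were called higher, and 21 were above 0. Neither was called with edgeR, without young D11, without young D12, without AThi O10 or without AThi O11. None of 6 measured B cell markers was called (0 with edgeR), and those transcripts were high in 1 library of each group. Klrb1c, the NK1.1 receptor, rose from 375 and 353 to 2354, 2729.5 and 1284 and was the 1 call among 4 T and NK cell markers. Their sum was 1192 and 1326 in young and 2121 to 3172 in AThi, where Klrb1c made up most of it. Of the 4 markers 2 were above 0 and 2 below 0, with a median of -0.06 and Cd4 lowest at -2.95. Prtn3, a granule protease whose call was lost without young D11, young D12 or AThi O10, was the 1 call among 6 granulocyte markers (2039 and 1684 in young and 4644, 5765 and 3639 in AThi); their sum was 3821 and 4357 in young and 7584 to 9418 in AThi, with Mpo and Lcn2 each at 0 in an AThi library. The part of such cells in other results was not tested. Of 35 immediate early genes, Gadd45g, a growth arrest gene (1.80), and Dusp4, a phosphatase of MAP kinases (1.60), were called, with a median of 0.27, and neither call held in any of the 5 fits that left out a young or AThi library. Of 38 HSC transcription factors 1 was called: Pbx3, a partner of HOX proteins, rose from 778 and 973 to 2847, 2834 and 2447, while Mecom, a regulator of HSC identity, did not pass (13954 and 10560.1 in young and 15873, 13488 and 13247 in AThi).

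The 3 genes just outside the base mean threshold were Cfap43, Ugt1a7c and Mex3b, each with a base mean of 99.8, and the 3 just inside were Gm49654, Wnt2b and Pet117, with base means of 100.1. None of the 6 was called. In all, 302 of 19909 genes were called, 23 of them below the threshold.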

How the data were processed

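RNA of bone marrow HSCs from GFP-LC3 mice was sequenced from about 10000 cells per sample with an RNA integrity number over 9.0, with 50-base paired reads and 40 M reads as the target, per the labels' protocols. The submitters' processing notes name STAR, featureCounts, DESeq2, FastQC, MultiQC and GRCm38, while versions, gene models and strandedness were not given in the sources used here. In the tables the authors deposited stand a normalized signal per library, a log2 fold change, its standard error, a Wald statistic (score), and raw and adjusted p-values. Each signal column is a read count divided by 1 factor, since 100% of values were whole multiples (tolerance 0.01) of what 1 read was worth. Column tags (D11, D12, O10 to O12) are not the labels' replicate numbers, so columns were matched to groups only.

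The main test was limma 3.58.1 (trend and robust settings) in R 4.3.3 on log2(normalized count + 1), fitted over 8 libraries in 3 groups, which share 1 estimate of spread; fold changes of low genes are understated on this scale. The p-values were adjusted by the Benjamini-Hochberg method over all 19909 genes, and 0.05 was the threshold. Alternatives were edgeR 4.0.16 and DESeq2 1.42.0 on recovered reads, voom, other pseudocounts (0.5 and 10), filters and scalings, a block for the mouse tag, and leaving out each library. Deviations of AThi and ATlo libraries with the same tag correlated over 13611 genes by 0.209, 0.164 and 0.373, and by at most 0.030 between other pairs, and the labels call the old samples paired, so the old fractions were taken as paired by mouse. Libraries of a group differed by more than sampling noise (chi-square per degree of freedom 51.2 to 107). Fits were tested on simulated data. Motifs and tables were handled in Python 3.11.15 with numpy 2.4.6, pandas 2.3.3 and scipy 1.17.1, and plots in matplotlib 3.10.9.

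The members, the gene lists, the marker lists and the rule for named genes were chosen with earlier results of these data known. The rule took, among called genes with an ordinary symbol, the 12 largest rises and falls, the 8 of lowest adjusted p and the 8 of largest mean difference in each direction, up to 4 called members of each list, the 8 in each direction that differed most and least between old fractions, and a set of genes of the gate, the cell cycle and HSC identity whatever their p.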

Additional observations from a re-analysis of the deposited data

Results flagged for a closer look

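Among the genes named, 38 differed between AThi and ATlo at an adjusted p under 0.05 in limma. By that test their difference from the shared young libraries was not the same size in the old fractions. All 38 were also called with the mouse tag as a block, a fit to the same libraries. Part of the naming rule picked genes for a low p in this test, and 36 of the 38 were called against young. The number 38 is therefore not read as a result. Over all 13611 genes the test called 0.683% higher and 2.06% lower in AThi.

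In 14 genes AThi was the higher fraction. Their AThi minus ATlo differences on the log2 scale were 2.33 for Xdh, 1.60 for Bmp4, 1.57 for Plxdc2, 1.55 for Gpr183, 1.41 for Dnm3, 1.31 for Rarb, 1.15 for Jam2, 1.06 for Lratd2, 1.05 for Abcb1a, 1.01 for both Myof and Exoc6b, 0.96 for Procr, 0.91 for Gda and 0.86 for Alcam. In Plxdc2 AThi lay below young and ATlo lower still.

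In 24 genes AThi was the lower fraction. Genes of nucleotide supply, the fork and the checkpoint gave -2.32 for Ung, -2.26 for Pclaf, -2.17 for E2f1, -2.01 for Rrm2, -1.95 for Chek1, -1.81 for Mcm5, -1.73 for Brip1, -1.49 for Brca1, -1.24 for Rrm1, -1.20 for Dtl, -1.12 for Mcm6, -0.94 for Ccne2 and -0.91 for Topbp1. Genes of mitosis, the spindle and chromatin gave -1.86 for Ube2c, -1.48 for Ncapg2, -1.43 for Mki67, -1.31 for Top2a, -1.30 for H1f5, -1.28 for Lmnb1, -1.23 for Atad2, -1.22 for Ect2, -1.02 for Tuba1b, -0.93 for Tubb5 and -0.53 for Nap1l1.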

How the results depend on the processing

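No alternative reversed the direction of a count or of any of the 101 named genes called against young. Named genes that were not called, such as Slc2a1 with a difference near 0, could change sign when a library was left out. For AThi against young, 279 genes were called (199 higher and 80 lower). Fitting only genes whose base mean reached 100 gave 398 (268 and 130), the fit of only the 5 AThi and young libraries 162 (130 and 32), and voom 146 (95 and 51). DESeq2 refitted on recovered reads and the authors' deposited test each called 845 (501 and 344), so that rises made up 71.3% of calls in limma and 59.3% in DESeq2. The edgeR test called 235 (160 and 75). Leaving out 1 library gave 124 to 259 calls, 103 to 180 higher and 21 to 91 lower; the lowest counts of all and of higher and lower calls came without young D11. Without the libraries tagged 12, an alternative chosen after seeing the data, 74 (72 and 2) were called, with 1 young library left whose spread was taken from the other groups. For AThi against ATlo, 373 genes were called. Fitting only genes whose base mean reached 100 gave 599, DESeq2 1275, and leaving out 1 library 92 to 281, lowest without ATlo O11. Without the libraries tagged 12 that count was 1. With a replicate block by mouse tag (correlation 0.160), AThi against ATlo called 654 and AThi against young 283. Among the named genes the block ended the calls of Ect2, Ube2c and Stom against young. The filter of 10 reads in 2 libraries removed no gene. TMM scaling moved the median difference from -0.02 to -0.01, and totals without ribosomal RNA and mitochondrial genes to -0.04. Of 101 named genes called against young, 85 were called with edgeR, 98 with the block, 69 in the 5-library fit, 68 with voom, 51 without young D11, 57 without young D12 and 35 without the libraries tagged 12. The number of young libraries, 2, and the disagreement between them limit what could be called.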

Other observations

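Some called genes that the naming rule did not pick are named here because their values were seen first; Cd38 is also 1 of the 41 called HSC ageing genes. Nuclear receptors were among the rises. Pgr, the progesterone receptor, was at 1081 and 1059 in young, 3157, 2956 and 3299 in AThi, with 2171, 2148 and 1489.5 in ATlo libraries, a rise of 1.55 (SE 0.19, adjusted p = 0.00344) in AThi. Rorb, an orphan nuclear receptor, was at 129 and 407 in young and 2263, 3551 and 2025 in AThi, a rise of 3.46 (SE 0.48, adjusted p = 0.00658), and its young libraries differed by over 2-fold. In both genes each AThi library exceeded both young libraries. Cd38, an enzyme that consumes NAD and an HSC surface protein, was at 639.9 and 893 in young, 2335, 2243 and 2445 in AThi, with 1156, 1072 and 1326 in ATlo. Its rise in AThi was 1.63 (SE 0.19, adjusted p = 0.00306) against young and its difference from ATlo was 0.99 (adjusted p = 0.0238). Gria3, a glutamate receptor subunit, was lower in both old fractions (2701 and 2788 in young, 887, 1105 and 1050.4 in AThi, with 779, 845 and 605 in ATlo).

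Several called genes were neighbours in the RefSeq annotation (GRCm38.p6), again noted after their values were seen. Besides Mt1 and Mt2, which lie 5316 bases apart on chromosome 8, Clec9a and Clec1a lie 1920 bases apart on chromosome 6 and differed by 1.93 and 2.11, and Enpp5 and Enpp4 lie 9740 bases apart on chromosome 17 and differed by 1.88 and 1.05. Trpm6 and Rorb lie 38088 bases apart on chromosome 19 and differed by 2.48 and 3.46. On the X chromosome Il1rapl2 (3.58) and Nrk (-2.45) moved in opposite directions 65154 bases apart. Selp and Gm16548, and Clca3a1 and Gm34866, overlap, and without a stated strand setting their reads cannot be told apart.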
